A study of Mus musculus with 12 samples.

Results

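Akap5 and the genes of the protein kinase A system that it works with were followed in mouse soleus, a postural muscle of the lower leg. The 9 genes were the anchoring genes Akap5, Akap1, Akap6, Akap12 and Akap13, the catalytic subunit Prkaca, and the regulatory subunits Prkar1a, Prkar2a and Prkar2b. They were taken by symbol from the 24539 genes of the deposited count table, and 9 of 9 were among the 13886 genes kept by the filter on low counts. Akap5 was selected on its lower level after exercise in both genotypes, so its exercise values are given as a description with no test. The other 8 genes were added as its kinase and anchoring partners.

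RNA was sequenced from 12 soleus libraries of C57BL/6 mice kept on chow, 3 in each of 4 groups: WT sedentary, KO sedentary, WT exercise and KO exercise. WT mice were Dnmt3a floxed, so these controls carried the floxed alleles too, and KO mice were MCK-Dnmt3a KO. MCK is the usual abbreviation of muscle creatine kinase, whose promoter drives Cre in striated muscle fibres, so other cells of the muscle keep the gene. The kind and length of exercise, the time from exercise to dissection, and the age and sex of the mice were not given in the sources used here.

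Protein kinase A is held inactive by a dimer of regulatory subunits, which binds cyclic AMP and then frees the catalytic subunits. A-kinase anchoring proteins grip the regulatory dimer and hold the kinase at a membrane, an organelle or a channel, next to phosphatases, phosphodiesterases and substrates. In muscle, adrenaline acts through this pathway on glycogen breakdown, lipolysis and calcium handling, and freed catalytic subunits phosphorylate the transcription factor CREB, which binds the cyclic AMP response element.

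Total counts ran from 13329547 to 15480960 per library. Levels are counts scaled to library size (CPM) after TMM scaling, which corrects for differences in library composition, and changes are log2 fold changes with their standard error (SE). Dnmt3a, the targeted gene, had 48.6 to 60.5 CPM in the 6 KO libraries and 113 to 180 in the 6 WT libraries; reads of its antisense partner Dnmt3aos cannot be told apart, since strand was not given. The columns WT exercise a and KO exercise a carried 2 animal numbers each; whether these libraries pooled mice was not given. Alb, the liver gene for plasma albumin, was high in 3 libraries: KO sedentary b (329 CPM), WT exercise b (227 CPM) and WT exercise c (178 CPM). Dbp, a clock output gene, was above 100 CPM in 5 libraries, among them both libraries of 2 animal numbers. Striated muscle markers summed to 60520 to 90980 CPM per library. P-values measure the spread between the libraries of a group, which the labels do not trace to single mice.

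Akap5 encodes a scaffold at the plasma membrane that binds protein kinase A, protein kinase C and the phosphatase calcineurin. It lies on chromosome 12 (mm10, 76324891 to 76334153, plus strand, 2 exons). In WT sedentary muscle the 3 libraries had 6.15, 7.71 and 8.77 CPM. In KO sedentary muscle they had 9.12, 6.50 and 6.13 CPM. After exercise the WT libraries had 1.13, 2.09 and 1.87 CPM, and the KO libraries had 2.56, 2.35 and 1.44 CPM. Every exercised library was below every sedentary one, and the groups of the same condition overlapped.

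The group means were 7.54 ± 1.32 CPM in WT sedentary and 7.25 ± 1.63 in KO sedentary, against 1.70 ± 0.506 in WT exercise and 2.12 ± 0.595 in KO exercise (SD, n = 3 each). The exercise difference was −1.95 on the log2 scale (SE 0.195, 95% interval −2.37 to −1.53), 0.259 times the sedentary level. It was −2.13 (SE 0.279) in WT and −1.77 (SE 0.271) in KO, with a difference between the genotypes of 0.36 (SE 0.388). These values chose the gene and support nothing. The counts behind them were small, from 14 to 145 reads per library. Over the other settings and left-out libraries the averaged difference ran from −2.29 to −1.85.

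The genotype contrast averaged over both conditions played no part in the choice of Akap5, and it was tested there. KO differed from WT by 0.13 (SE 0.194, 95% interval −0.30 to 0.55), with an adjusted p = 1.00 in edgeR's quasi-likelihood test with Benjamini-Hochberg adjustment over all genes. The difference was smaller than the spread between libraries, and it was −0.061 without the 2 libraries of 2 animal numbers. Within conditions it was −0.056 in sedentary and 0.31 in exercised mice, given without a test.

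**Figure D1:**
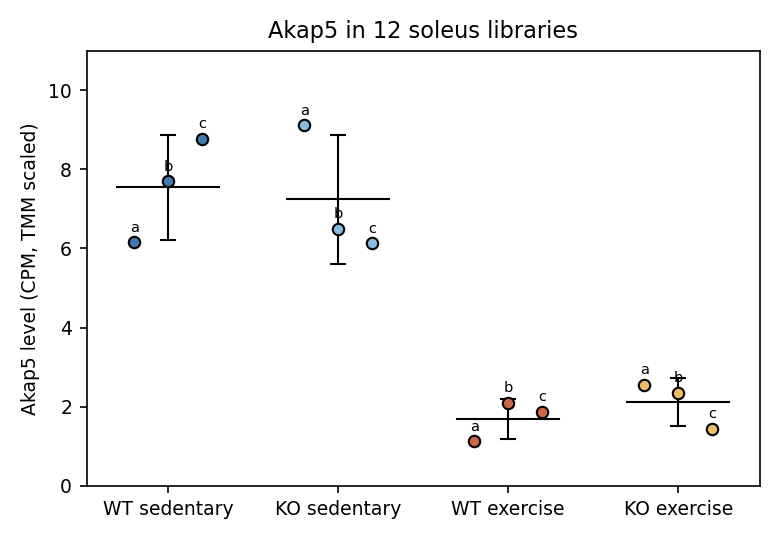
Akap5 level in CPM (vertical axis) in each of the 12 libraries, a to c within each group (horizontal axis), with the group mean as a line and its SD as bars (n = 3). The 6 exercised libraries sit between 1.13 and 2.56 CPM, below the 6 sedentary libraries at 6.13 to 9.12 CPM.

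In bulk tissue, fewer cells of a type and less RNA per cell cannot be told apart, and markers of several cell types had negative changes in the averaged exercise contrast as well. Over all tested genes 1.68% were called lower in that contrast. Endothelial markers were negative in 6 of 6, with 4 called and a median of −0.41, and their summed level was 776 to 906 CPM in sedentary and 480 to 696 CPM in exercised libraries, with no overlap. Adipocyte markers were negative in 7 of 7 (median −0.96, 0 called), Schwann cell markers in 5 of 5 (median −0.89, 0 called) and macrophage markers in 5 of 5 (median −0.79, 0 called). Fibro-adipogenic markers were negative in 6 of 6 (median −0.51, 1 called), and smooth muscle and pericyte markers in 6 of 6 (median −0.19, 1 called). Slow fibre and striated muscle markers were positive in 6 of 6 (median 0.25) and 5 of 5 (median 0.24), with 0 called. Erythrocyte markers were negative in 3 of 3 (median −0.54), satellite cell markers in 2 of 2 (median −0.39), liver markers in 0 of 5 (median 0.60), fast fibre markers in 3 of 6 (median 0.016) and clock output genes in 1 of 6 (median 0.23), all with 0 called. No marker was at 0 in all libraries. The part of these shifts in the Akap5 level was not tested.

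Dbp differed between libraries of both conditions, and the exercised libraries with high Dbp were the 2 of 2 animal numbers. In libraries with high Dbp, Akap5 had 7.71 to 9.12 CPM in 3 sedentary and 1.13 to 2.56 CPM in 2 exercised libraries. In libraries with low Dbp it had 6.13 to 6.50 CPM in 3 sedentary and 1.44 to 2.35 CPM in 4 exercised libraries. That the exercised libraries were lower in both sets follows from the pattern that chose the gene, and the part of the clock difference in the Akap5 level was not tested.

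Read against all tested genes, 452 of 13886, or 3.26%, had no overlap between the 6 exercised and the 6 sedentary libraries. Akap5 was the 1 of the 9 genes among them, and it was chosen for that pattern. With both genotypes weighted equally, 322 genes, or 2.32% of those tested, passed an adjusted p of 0.05 after exercise, 89 higher (0.641%) and 233 lower (1.68%). In WT alone 3 genes (0.0216%) passed, in KO alone 0 genes (0%), and for the interaction of genotype and exercise 0 genes (0%). Of the 13886 tested genes, 3170 had an unadjusted p under 0.05 in edgeR in the averaged exercise contrast. In WT it was 1306 genes, in KO 2492 and for the interaction 430. For KO against WT it was 625 averaged over conditions, 671 in sedentary and 469 in exercised mice. The counts of calls turned on the tool. DESeq2 called 63 higher and 59 lower in WT, 109 and 250 in KO, and 0 and 22 for the interaction. There limma-voom called 1, 0 and 0 genes. KO against WT gave 8 calls (0.0576%) averaged over conditions, 4 (0.0288%) in sedentary and 3 (0.0216%) in exercised mice, while DESeq2 called 29 higher and 4 lower, 16 and 4, and 8 and 1. None of the 8 partner genes passed in any of the 7 contrasts in edgeR, with 3 of them under an unadjusted p of 0.05 in the averaged exercise contrast, 1 in WT, 1 in KO and 0 in the other 4. DESeq2 called 1 partner, Akap6, in the averaged exercise contrast, and limma-voom called 0.

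Among the anchors, Akap6 encodes the muscle anchoring protein of the nuclear envelope, which holds protein kinase A beside a phosphodiesterase (chromosome 12, 52699383 to 53155599). Its level was 152, 131 and 134 CPM in WT sedentary and 142, 155 and 149 in KO sedentary libraries. After exercise it was 147, 171 and 174 CPM in WT and 154, 164 and 170 in KO libraries. The exercised libraries were mostly higher, but the ranges overlapped. The change was 0.19 (SE 0.0617, 95% interval 0.053 to 0.32), which did not pass in edgeR's quasi-likelihood test (adjusted p = 0.115). DESeq2 gave 0.20 (adjusted p = 0.0487), and edgeR with a clock covariate gave 0.18 (adjusted p = 0.0447). The 2 exercised libraries of 2 animal numbers had 147 to 154 CPM against 164 to 174 in the other 4.

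Akap1 encodes the anchor of the outer mitochondrial membrane (chromosome 11, 88830792 to 88864586). It had 199, 245 and 272 CPM in WT sedentary and 254, 155 and 184 in KO sedentary libraries. After exercise it had 163, 198 and 216 CPM in WT and 195, 192 and 228 in KO libraries. The sedentary libraries spread the most and enclosed all exercised values. Averaged over genotypes it changed by −0.13 (SE 0.126, 95% interval −0.40 to 0.15, edgeR adjusted p = 0.563), with −0.31 in WT and 0.053 in KO. In the high Dbp libraries the sedentary values were 245 to 272 CPM against 163 to 195 exercised, and in the low Dbp libraries 155 to 199 against 192 to 228, so the exercised values were lower in the first set and, with an overlap, higher in the other. The exercised libraries with high Dbp were those of 2 animal numbers, so these features cannot be told apart among exercised libraries. That split was made after the values were seen, and the difference between the sets was not tested.

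Akap12, also called gravin, encodes a scaffold of the plasma membrane (chromosome 10, 4266380 to 4359470). It had 32.4 to 41.6 CPM over the 6 sedentary libraries and 24.7 to 53.8 CPM over the 6 exercised ones, which held both the lowest and the highest value. WT exercise a had 24.7 CPM and WT exercise c, one of the libraries with much Alb, had 53.8 CPM. For the averaged exercise contrast the estimate was 0.0023 (SE 0.152, 95% interval −0.33 to 0.34, edgeR adjusted p = 0.994), and it was −0.33 without the 3 libraries with the most Alb.

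Akap13 encodes an anchor that is also an exchange factor for the small GTPase RhoA (chromosome 7, 75455534 to 75754609). It had 162 to 184 CPM in sedentary and 163 to 226 CPM in exercised libraries, with the 226 in KO exercise a. The averaged change was 0.09 (SE 0.0751, 95% interval −0.073 to 0.25, edgeR adjusted p = 0.491). Without the 2 libraries of 2 animal numbers it was −0.0057.

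Only RNA of the kinase was counted, and not its protein or activity. Prkaca encodes the main catalytic subunit in muscle (chromosome 8, 83972993 to 83996443). Its level lay between 231 and 266 CPM in the sedentary and between 241 and 277 CPM in the exercised libraries, so the ranges overlapped. Exercise against sedentary gave 0.087 (SE 0.0562, 95% interval −0.035 to 0.21, edgeR adjusted p = 0.37).

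Prkar1a encodes the type I regulatory subunit, which is mostly soluble (chromosome 11, 109649405 to 109669656). It had 289 to 318 CPM in sedentary and 269 to 332 CPM in exercised libraries, with the lower exercised values in the 2 libraries of 2 animal numbers (269 to 276 against 305 to 332 in the other 4). Its log2 change was 0.012 (SE 0.0648, 95% interval −0.13 to 0.15, edgeR adjusted p = 0.931).

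Prkar2a encodes a type II regulatory subunit, the form that most anchoring proteins bind (chromosome 9, 108689314 to 108750436). It had 229, 262 and 221 CPM in WT sedentary and 232, 250 and 257 in KO sedentary libraries. After exercise it had 283, 229 and 269 CPM in WT and 310, 264 and 284 in KO libraries. The ranges of the conditions overlapped, with 5 of the 6 exercised libraries above every sedentary one. The averaged change was 0.18 (SE 0.0709, 95% interval 0.022 to 0.33), with an unadjusted p = 0.0286 and an adjusted p = 0.173 in edgeR's quasi-likelihood test.

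Prkar2b encodes the type II subunit that is abundant in fat and brain (chromosome 12, 31958476 to 32061296). It had 9.32, 3.10 and 3.35 CPM in WT sedentary and 7.80, 5.73 and 5.01 in KO sedentary libraries. After exercise it had 3.86, 4.12 and 3.32 CPM in WT and 3.32, 4.58 and 2.73 in KO libraries. WT sedentary a was far above the other WT libraries, and the conditions overlapped. The averaged change was −0.64 (SE 0.271, 95% interval −1.23 to −0.049), with an unadjusted p = 0.0363 and an edgeR adjusted p = 0.19. Without WT sedentary a it was −0.28 (adjusted p = 0.407). In WT alone it was −0.48, and 0.23 without that library. Summed adipocyte markers were 647 CPM in WT sedentary a and 336 and 361 CPM in the other WT sedentary libraries; in KO sedentary muscle they were 558, 597 and 447 CPM, and 260 to 450 CPM after exercise. Summed Schwann cell markers were 673 CPM in WT sedentary a and 117 and 110 CPM in the other WT sedentary libraries. In KO sedentary muscle they were 117, 765 and 175 CPM, and after exercise 104 to 361 CPM. The part of adipocyte or Schwann cell RNA in the Prkar2b level was not tested.

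**Figure D2:**
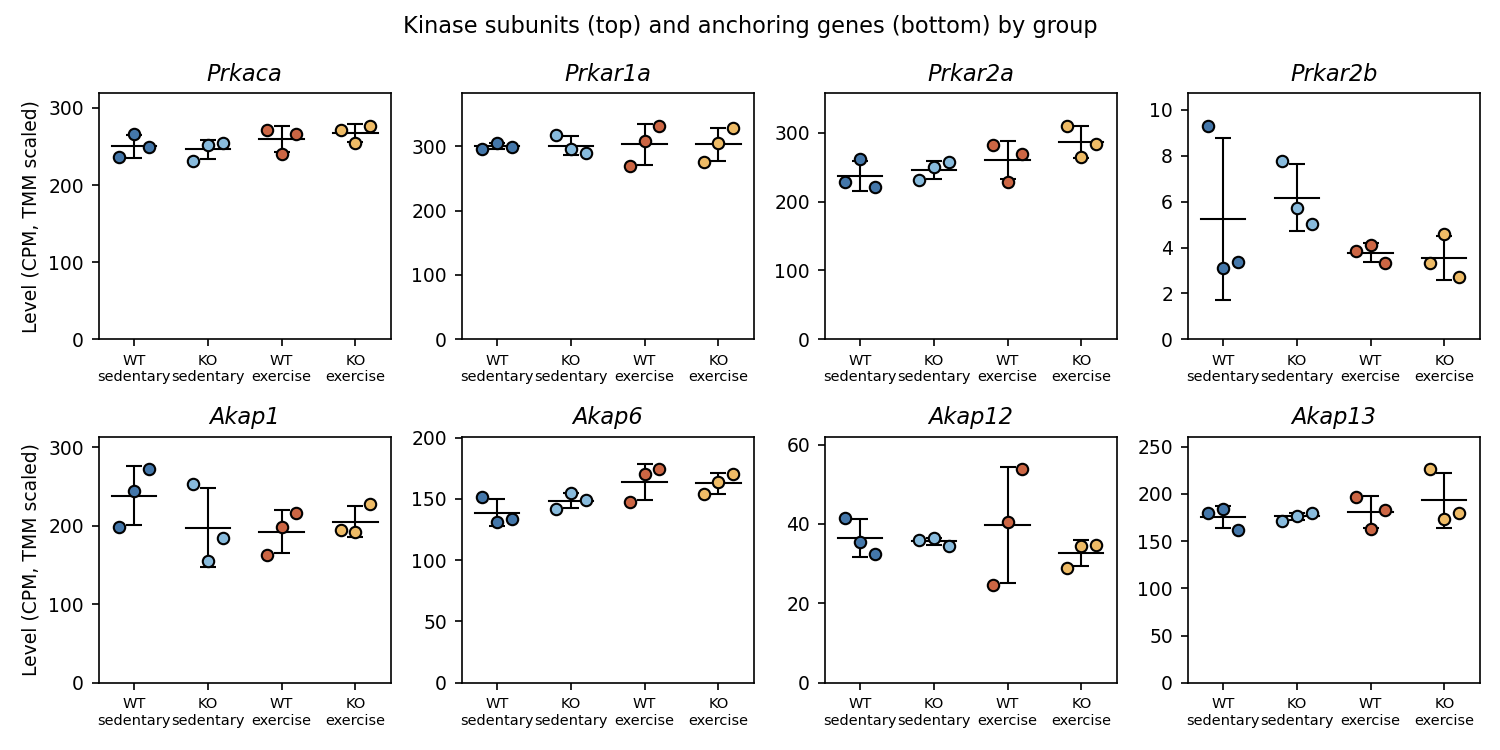
Levels in CPM (vertical axes, each starting at 0) of the 8 partner genes by group, 3 libraries as points, group mean as a line and SD as bars. Prkaca, Prkar1a and Prkar2a lie above 200 CPM in all libraries, while Prkar2b lies under 10 CPM and is highest in WT sedentary a at 9.32 CPM.

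Over the 8 partners the averaged exercise change ran from −0.64 to 0.19, with a median of 0.050 and 6 of 8 positive, beside a median of 0.00034 over all tested genes. For genotype, the averaged changes ran from −0.16 to 0.095, those in sedentary mice from −0.27 to 0.23 and those in exercised mice from −0.28 to 0.14. The interaction estimates ran from −0.32 to 0.36. The exercise contrasts in WT and in KO and the averaged contrast share libraries, as do the genotype contrasts.

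**Figure D3:**
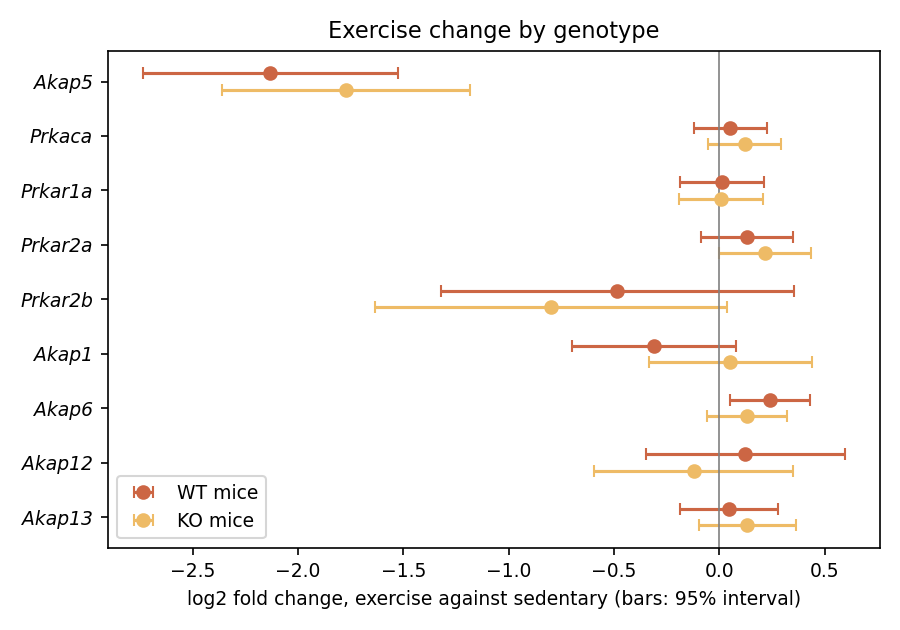
Log2 fold change of exercise against sedentary for the 9 genes (horizontal axis), in WT and in KO mice, with 95% intervals as bars. Akap5 stands at −2.13 in WT and −1.77 in KO, and it was selected for this; the other 8 genes lie between −0.80 and 0.24.

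Levels were compared between genes per kilobase of exon (CPM per kb), with lengths from GENCODE. Prkaca was highest at 93.0 to 111 CPM per kb over the 12 libraries, followed by Prkar1a at 62.2 to 76.9, Akap1 at 35.3 to 62.0 and Prkar2a at 34.7 to 48.7. Next came Akap6 at 8.82 to 11.8, Akap13 at 7.73 to 10.8 and Akap12 at 3.82 to 8.33 CPM per kb. Prkar2b, at 0.748 to 2.55, and Akap5, at 0.165 to 1.34, were lowest. The library ranges of Akap1 and Prkar2a overlapped, as did those of Akap6 and Akap13, of Akap13 and Akap12, and of Prkar2b and Akap5, so these ranges did not separate the neighbours. Within libraries, however, Akap13 was above Akap12 in 12 of 12, Akap6 above Akap13 in 11, Prkar2b above Akap5 in 10 and Akap1 above Prkar2a in 9.

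The make-up of the regulatory subunits was followed as the share of each in the sum of Prkar1a, Prkar1b, Prkar2a and Prkar2b, per kilobase. Prkar1a took 61.5 to 65.7% in sedentary and 56.1 to 65.4% in exercised libraries, a difference of −2.30 points (exact permutation test over 924 arrangements, two-sided p = 0.221, adjusted over both subunits 0.221). Prkar2a took 32.3 to 37.0% and 32.9 to 42.7%, a difference of 2.86 points (exact permutation test, p = 0.145, adjusted 0.221). Both differences shrank, to −0.063 and 0.66 points, without the 2 libraries of 2 animal numbers. Prkar2b took medians of 1.34% in sedentary and 0.887% in exercised libraries, and Prkar1b took 0.254 to 0.661% over all libraries.

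The other genes of the pathway were taken from 8 lists of 108 named genes, of which 96 were tested, and 6 rose and 3 fell in the averaged exercise contrast in edgeR, beside 0.641% higher and 1.68% lower over all tested genes. There limma-voom called 9 and DESeq2 17 of the 96. Over all tested genes limma-voom called 85 higher and 210 lower in that contrast, and DESeq2 356 and 656. In edgeR 35 of the 96 had an unadjusted p under 0.05, beside 3170 of all 13886 tested genes. In the other 6 contrasts edgeR and limma-voom called 0, while DESeq2 called 5 in exercised against sedentary WT, 7 in the same contrast in KO, and 1, Sln (named after its values were seen), in KO against WT both averaged and in sedentary mice. Unadjusted p-values in edgeR were under 0.05 for 21 genes in WT, 26 in KO, 1 for the interaction and 4 in each genotype contrast. Over all tested genes the counts were 1306 in WT, 2492 in KO and 430 for the interaction. For genotype they were 625 averaged over conditions, 671 in sedentary and 469 in exercised mice. Of the 4 tested kinase subunits and inhibitors 0 passed in edgeR (median 0.083, 2 with an unadjusted p under 0.05). Pkia and Pkig, which encode inhibitor proteins of the catalytic subunit, had 0.16 (adjusted p = 0.139) and 0.17 (adjusted p = 0.106), and both passed with DESeq2 at 0.16 (adjusted p = 0.0479) and 0.18 (adjusted p = 0.0393). Prkacb, a further catalytic subunit, had −0.0025 (adjusted p = 0.983). Of the 15 tested other anchors 0 passed in edgeR (median 0.063, 5 with an unadjusted p under 0.05). Cmya5, the striated muscle protein myospryn, had 0.25 (adjusted p = 0.078), and it passed with DESeq2 at 0.26 (adjusted p = 0.00774) and in edgeR without KO exercise b at 0.30 (adjusted p = 0.0269). Rab32, a small GTPase of mitochondria and lysosome-related organelles, had −1.08 (adjusted p = 0.12). Of the 15 tested genes of the Akap5 partner list, 0 passed in edgeR (median 0.069, 3 with an unadjusted p under 0.05). Besides proteins that Akap5 binds or anchors to, this list held Rcan1 and Nfatc1 to Nfatc4, a regulator and targets of calcineurin. Prkcb, a protein kinase C, had −1.11 (adjusted p = 0.113) and passed with DESeq2 at −1.11 (adjusted p = 0.0442). Cacna1s, the skeletal muscle calcium channel, had 0.19 (adjusted p = 0.193).

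The list of receptors, G protein and cyclases also held Adrbk1, Arrb1 and Arrb2. Of its 19 tested genes 1 fell, Arrb1 (median −0.16). Arrb1, which encodes a beta-arrestin that uncouples receptors from G proteins, had 26.3 to 33.4 CPM in sedentary and 13.4 to 21.7 CPM in exercised libraries, with no overlap. It fell by 0.69 (SE 0.118, edgeR adjusted p = 0.0169). The call was lost without WT sedentary c (adjusted p = 0.0542) and without either set of doubted libraries, at −0.67 without the 3 with the most Alb and −0.66 without the 2 of 2 animal numbers.

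Of the 15 tested phosphodiesterases, enzymes that break down cyclic AMP, 1 rose and 2 fell (median −0.094). Pde8a had 50.8 to 64.1 CPM in sedentary and 65.5 to 80.2 CPM in exercised libraries, and rose by 0.37 (SE 0.0703, edgeR adjusted p = 0.0256). Pde1b, which calcium and calmodulin activate, had 2.77 to 4.15 and 0.935 to 2.68 CPM and fell by 1.00 (SE 0.231, edgeR adjusted p = 0.0461). Pde4a had 90.3 to 115 and 72.3 to 91.1 CPM and fell by 0.29 (SE 0.0663, edgeR adjusted p = 0.0455). Leaving out 1 library at a time ended the call of Pde8a in 7 of 12 fits (0.33 to 0.37), of Pde1b in 10 (−1.08 to −0.86) and of Pde4a in 10 (−0.31 to −0.24). Without the 2 libraries of 2 animal numbers the calls also ended, at 0.33, −0.89 and −0.27.

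Genes that CREB is known to drive had the largest median of the 8 lists, which were chosen with earlier results of these data known. Of 10 tested, 10 were positive and 5 rose in the averaged exercise contrast, with a median of 1.73. In WT 10 were positive (median 2.05) and in KO 8 (median 1.44). The interaction estimate was negative for 10 of 10 (median −0.52). In WT, in KO and for the interaction 0 passed in edgeR. In the averaged contrast the 8 genes for CREB, its relatives and coactivators had 0 calls in edgeR, DESeq2 or limma-voom (median 0.079, 1 with an unadjusted p under 0.05). Nr4a2, a nuclear receptor, had 2.68 to 5.86 CPM in sedentary and 13.7 to 41.0 CPM in exercised libraries and rose by 2.47 (SE 0.328, edgeR adjusted p = 0.0118). Sik1, a salt-inducible kinase, had 36.5 to 122 and 182 to 322 CPM and rose by 1.85 (SE 0.253, edgeR adjusted p = 0.0132). Neither gene's conditions overlapped, and both calls were kept in each of the 12 fits without 1 library. Without the 3 libraries with the most Alb both were lost, at 2.19 and 1.65.

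Nr4a3, another nuclear receptor, rose by 2.48 (SE 0.512, edgeR adjusted p = 0.0444), Fos, an early-response transcription factor, by 2.61 (SE 0.566, adjusted p = 0.0481), and Irs2, an insulin receptor substrate, by 2.25 (SE 0.463, adjusted p = 0.0441). Leaving out 1 library ended these calls in 9 (2.03 to 2.64), 10 (2.33 to 2.74) and 10 (2.04 to 2.42) of 12 fits, and without the 2 libraries of 2 animal numbers Fos and Irs2 lost theirs, at 2.92 and 2.35. Other settings ended calls too: no filter on low counts for all 3 (2.49, 2.62 and 2.26), limma-voom for Nr4a3 (2.18), and RLE scaling and the clock covariate for Fos (2.62 and 2.43). All 9 called pathway genes lost their calls without the 3 libraries with the most Alb, where fewer samples were fitted. Their changes there were 1.89 for Nr4a3, 2.54 for Fos, 2.20 for Irs2, 0.40 for Pde8a, −1.12 for Pde1b and −0.29 for Pde4a, each in the same direction. Of 10 tested substrates of the kinase in muscle, 0 passed in edgeR (median 0.13, 3 with an unadjusted p under 0.05). Ryr1, the calcium release channel, had 0.24 (adjusted p = 0.106), and it passed with DESeq2 at 0.25 (adjusted p = 0.0267) and in edgeR without KO exercise b at 0.30 (adjusted p = 0.0301). Lipe, hormone-sensitive lipase, had −0.35 (adjusted p = 0.137).

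**Figure D4:**
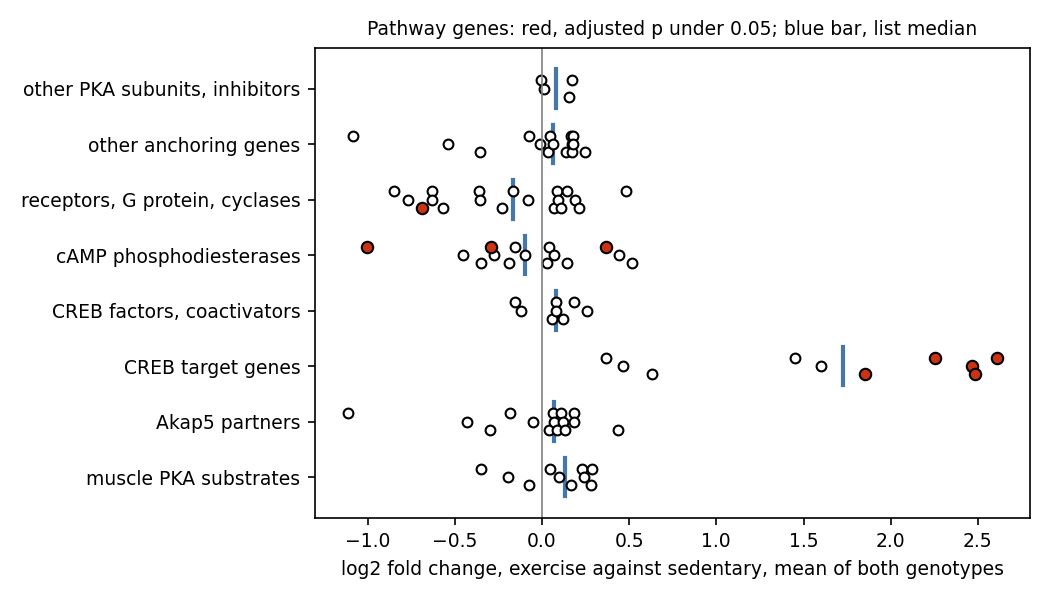
Log2 fold change of exercise against sedentary (horizontal axis) for the tested genes of 8 lists, with red points for an adjusted p under 0.05 and a blue bar for each list's median. The 5 red points of the CREB target list lie between 1.85 and 2.61, and the other lists have medians between −0.16 and 0.13.

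The promoters were read for the cyclic AMP response element, since it is where CREB binds. Windows of 300 bases, 250 before and 50 from the start, were taken from RefSeq (GRCm38.p6) for 8 of the 9 genes; Akap12 had no entry. Searched on both strands, the full element TGACGTCA was in 1 of 8 and its shorter core TGACG, or CGTCA on the other strand, in 3 of 8 (Prkaca, Prkar1a and Prkar2a). Genes with several starts, such as Prkar1a, had more windows than genes such as Akap5, and letters in any window counted. The full element holds the core on each strand, so a full element counts as a core as well. Over all 17639 genes of the table with a window, 2.64% held the full element and 26.69% the core. Of the listed CREB targets, 8 of 9 with a window held the core and 1, Dusp1, the full element. Irs2 held neither, and Sik1 had no entry. A match describes letters and not a bound site.

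The windows of 3 genes are shown, for Akap5, which held no such letters, the regulatory subunit with a full element, and the CREB target with the smallest adjusted p. Capitals mark the element or its core. The windows are Akap5 at chr12:76324641-76324940 on the plus strand, Prkar1a at chr11:109650612-109650911 on the plus strand, and Nr4a2 at chr2:57123954-57124253 on the minus strand.
Akap5: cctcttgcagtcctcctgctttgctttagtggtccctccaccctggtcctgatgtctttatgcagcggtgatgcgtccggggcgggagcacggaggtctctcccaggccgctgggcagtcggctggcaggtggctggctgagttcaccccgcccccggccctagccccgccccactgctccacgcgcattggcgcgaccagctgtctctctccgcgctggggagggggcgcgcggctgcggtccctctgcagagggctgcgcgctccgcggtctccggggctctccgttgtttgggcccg
Prkar1a: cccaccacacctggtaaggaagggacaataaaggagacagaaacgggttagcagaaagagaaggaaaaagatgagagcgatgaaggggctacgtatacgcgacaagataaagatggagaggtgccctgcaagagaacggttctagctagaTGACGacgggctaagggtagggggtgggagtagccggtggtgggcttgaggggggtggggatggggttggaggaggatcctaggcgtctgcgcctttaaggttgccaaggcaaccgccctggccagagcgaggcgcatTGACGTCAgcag
Nr4a2: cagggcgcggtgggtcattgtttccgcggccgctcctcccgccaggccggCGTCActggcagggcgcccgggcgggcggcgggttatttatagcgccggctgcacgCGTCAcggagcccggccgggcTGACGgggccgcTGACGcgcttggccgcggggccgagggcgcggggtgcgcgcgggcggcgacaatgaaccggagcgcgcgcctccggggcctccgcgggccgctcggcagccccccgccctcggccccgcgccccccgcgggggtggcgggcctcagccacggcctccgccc
Akap5 has no capital in its window. Prkar1a holds a core and, near the end of the window shown, the full element, and its level did not pass in any contrast. In an overlapping Prkar1a window, taken from another start, the full element begins at −49, before that start. Some other windows of Prkar1a held no core. Nr4a2 holds the core at 4 places and rose by 2.47, while Irs2, with no core in its window, rose by 2.25. No match in a window says only that the letters are not in it.

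The genes whose levels ran most alike to Akap5 were found by Pearson's r of log2 CPM over the 12 libraries, among 12852 genes with a mean of 1 CPM or more. Among the 6 highest were Nos2 (0.964), D630003M21Rik (0.959), Zfp90 (0.95), Angpt2 (0.944) and Clec10a (0.942). The libraries share the exercise grouping, which alone gives high values. After subtracting group means r was 0.911 for Nos2, 0.648 for D630003M21Rik, 0.834 for Zfp90, 0.769 for Angpt2 and 0.448 for Clec10a. The genes were picked on r over the same libraries, which holds the spread within groups too. The values after subtraction are therefore a description and support nothing. Among the partners r with Akap5 ran from −0.714 for Akap6 to 0.484 for Prkar2b.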

How the data were processed

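The authors deposited 1 table of counts per gene, whole numbers, for all 12 libraries. Its column names give genotype, condition and animal numbers absent from the sample labels; columns were therefore tied to groups and not to samples, and lettered a to c by position within a group. The submitters' processing notes name STAR, featureCounts and mm10, with no role or version; strand handling was not given. A further 12 per-sample columns of the table were left aside.

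Genes were filtered with filterByExpr (minimum count 10) and tested with edgeR 4.0.16 in R 4.3.3: TMM scaling, robust quasi-likelihood fits with 1 mean per group (8 residual degrees of freedom), 7 contrasts, and Benjamini-Hochberg adjustment over 13886 genes with a threshold of 0.05. Intervals are 95%. The steps were tried on simulated counts with the same spread for all genes, in the averaged exercise contrast alone. The planted changes were larger than that of any partner there, so changes as small as those of the partners were not covered. Alternatives were DESeq2 1.42.0, limma-voom (limma 3.58.1), other scalings and filters, a clock covariate, the compared groups alone, and libraries left out. No replicate pair agreed within sampling noise (chi-square per gene 8.73 to 51.9, using genes with 20 counts or more over both libraries). Counting error grows at low counts, as for Akap5 and Prkar2b.

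Genes were named by rule: all 9 members; list genes past the threshold, or up to 3 by smallest p in lists with none, of which the text gives a selection; and the 6 genes most like Akap5, of which 1 is not reported here. The members and lists were chosen with earlier results of these data known.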

Additional observations from a re-analysis of the deposited data

How the results depend on the processing

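Counts of members past the threshold after exercise include Akap5, whose own values chose it, so they are a description. No partner passed in any of the settings other than Akap6 in the averaged exercise contrast, which made 2 members with DESeq2 and 2 with the clock covariate. In WT the count was 0 with limma-voom, the clock covariate, without the 3 libraries with the most Alb or without the 2 libraries of 2 animal numbers (chosen after seeing the data), and 0 to 1 with 1 library left out (0 in 10 of 12 fits, while Akap5's change stayed at −2.31 to −1.92). In KO the count was 1 with DESeq2. Akap5's change in WT was −2.73 without the libraries with the most Alb, where WT exercise keeps 1 library assumed to vary like the other groups. Estimates near 0 changed sign, as did some further from 0, and the cause was not tested. Akap12 was −0.027 with limma-voom, −0.023 with upper quartile scaling, −0.00089 with the CPM filter, −0.041 with the clock covariate, −0.33 without the libraries with the most Alb, and −0.14 to 0.13 with 1 library left out. Prkar1a was −0.014 with upper quartile scaling, −0.080 without those libraries and −0.022 to 0.053 with 1 left out. Prkacb was 0.0060 with DESeq2, 0.0066 with RLE scaling, 0.0056 with no filter, 0.067 without those libraries and −0.024 to 0.021 with 1 left out. Crem was 0.26 and Crtc2 −0.16 in the main fit, against −0.030 and 0.038 without those libraries. Without the 2 libraries of 2 animal numbers, Akap13 was −0.0057 and Akap5's genotype difference −0.061. Akap1 in KO was −0.093 without the libraries with the most Alb and −0.094 to 0.28 with 1 left out. Prkar2b in WT was −0.48 in the main fit and −0.74 to 0.23 with 1 left out. Over all genes the averaged exercise contrast called 356 higher and 656 lower with DESeq2, 231 and 531 with the clock covariate, 57 and 65 without the libraries with the most Alb, 45 and 78 without the 2 libraries of 2 animal numbers, and 18 to 150 and 27 to 547 with 1 left out. No paired analysis was possible because the count columns carry animal numbers and not the replicate numbers of the labels. Low counts limit Akap5 and Prkar2b most.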
